A study of Mus musculus with 39 samples.

Results

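Cd79a, Cd79b, Ms4a1, Pax5 and Ebf1, genes that mark B cells without coding for an antibody chain, were followed across 39 RNA sequencing libraries of sorted mouse lung cells. They are 5 of the 43430 genes in the deposited count table and were matched by symbol. They were selected on their measured counts, which were higher in macrophages of old mice than of young mice, so their difference with age in macrophages is described here and not tested.

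A mature B cell senses antigen with a membrane-bound antibody that cannot signal by itself and relies on the paired chains Cd79a and Cd79b, whose cytoplasmic tails carry the tyrosine motifs that recruit kinases. Ms4a1 codes for CD20, a membrane protein of B cells that is lost when they become plasma cells. Ebf1 and Pax5 are transcription factors that set and keep B cell identity, and Cd79a is among their best-known targets. Lungs hold B cells in the blood vessels, in the tissue and, in old or injured lungs, in lymphoid clusters.

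All libraries came from C57BL/6J mice. Macrophages were of the Siglec F-low, monocyte-derived alveolar kind and were sorted 21 days after bleomycin, which injures the lung and leaves fibrosis. Monocytes were sorted from the lungs of naive mice. Within each cell type the mice were young or old and had received saline or ISRIB, an inhibitor of the integrated stress response. The series text gives daily injection of ISRIB into the peritoneum from day 7, and no timing for naive mice was stated. It gives ages of 3 to 5 months for young and 18 to 24 months for old mice, whereas the sample labels give 8 to 12 weeks and over 18 months. There were 5 libraries per group in 8 groups, with 4 for young ISRIB macrophages. No label names separate animals, so p-values measure the spread between these libraries. Cell type goes together with bleomycin, and the 2 cannot be told apart.

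Library totals ran from 4595331 to 16056708 counts, so that 3 counts, the limit that a count of 0 allows, came to 0.314 to 0.653 CPM (counts scaled to a library total of 1000000) where a count of 0 occurred. Such limits, and the binomial intervals of shares below, cover counting error only. The intervals of fold changes also take in the spread between libraries. The sorts matched their labels: 8 macrophage genes fixed as markers summed to 8260 to 17200 CPM in macrophages and 797 to 1150 CPM in monocytes, and 7 monocyte markers to 1100 to 2100 and 6550 to 9880 CPM.

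Cd79a (ENSMUSG00000003379, chr7:24897381-24902197, plus strand, GRCm38) encodes the alpha signalling chain. The stretch just before its annotated start is shown because early B cell factor 1, the product of Ebf1, is known to act on the Cd79a promoter, so that it ties 2 of the 5 genes together. It is the RefSeq sequence of GRCm38.p6 at chr7:24897247-24897380, plus strand, which ends at the base before the GENCODE start. Capitals mark the reverse complement of ATTCCC, which is one arm of the site bound by early B cell factor, and a match to the E-box CANNTG.

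Cd79a upstream: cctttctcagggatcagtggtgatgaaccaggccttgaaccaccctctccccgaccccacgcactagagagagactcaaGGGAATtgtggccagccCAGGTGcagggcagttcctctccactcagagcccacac

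A set of 4 motifs was searched on both strands in the 250 bases before RefSeq starts: ATTCCC, the full early B cell factor core CCCNNGGG, the octamer ATTTGCAT and the E-box CANNTG. In 32851 such windows of the mouse genome, ATTCCC was present in 11.4%, CCCNNGGG in 11.8%, ATTTGCAT in 1.6% and CANNTG in 66.2%. The Cd79a window held 1 ATTCCC, at position -171 from its RefSeq start, and 2 E-boxes, at -154 and -117, of which the second begins at the last base printed. The Pax5 window held 1 E-box, at -94. One of the 2 Ebf1 windows held an ATTCCC at -208 and an E-box at -108, and the other held none of the 4 motifs. CCCNNGGG and ATTTGCAT were absent from these 4 windows. Promoter windows were at hand for Cd79a, Pax5 and Ebf1.

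Cd79a was low in young macrophages and higher in old ones. In young saline macrophages the 5 libraries read 0.494, 0, 1.19, 0 and 0.374 CPM, and in young ISRIB macrophages the 4 libraries read 1.25, 1.01, 0.466 and 0.917 CPM. Old saline macrophages read 1.36, 2.94, 6.49, 2.25 and 5.91 CPM, and old ISRIB macrophages 7.55, 8.98, 9.25, 3.28 and 5.56 CPM. Every old library lay above every young library given the same treatment. The means were 0.412 ± 0.490 CPM (SD, n = 5) against 3.79 ± 2.28 CPM (SD, n = 5) under saline, and 0.911 ± 0.329 CPM (SD, n = 4) against 6.93 ± 2.51 CPM (SD, n = 5) under ISRIB. On the log2 scale of the fit the age difference was 3.17 ± 0.63 (SE) under saline and 2.86 ± 0.63 under ISRIB.

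In monocytes Cd79a was present at both ages. The young saline libraries read 2.16, 2.11, 1.85, 4.35 and 0.624 CPM and the old saline libraries 4.06, 4.71, 1.05, 3.16 and 3.29 CPM. The young ISRIB libraries read 3.27, 4.97, 4.90, 5.08 and 2.66 CPM and the old ISRIB libraries 5.05, 8.05, 6.07, 4.27 and 4.62 CPM. Old and young monocytes overlapped under both treatments, as did saline and ISRIB monocytes at both ages. Young monocytes spanned 0.624 to 5.08 CPM, a range that met both the young and the old macrophages.

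Cd79b (ENSMUSG00000040592, chr11:106311341-106314762, minus strand), the beta signalling chain that pairs with Cd79a, was ordered differently. Young macrophages read 0.165, 1.16, 0, 0 and 0.872 CPM under saline and 1.73, 1.57, 1.24 and 0 CPM under ISRIB. Old macrophages read 2.82, 2.26, 5.55, 0.661 and 2.44 CPM under saline and 6.73, 4.43, 6.00, 2.15 and 4.13 CPM under ISRIB. The age groups overlapped under saline, through 1 old library at 0.661 CPM, and did not overlap under ISRIB. The age difference on the log2 scale was 2.54 ± 0.76 (SE) under saline and 1.98 ± 0.76 under ISRIB.

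Cd79b had a higher mean in each monocyte group than in any macrophage group. Young monocytes read 7.65, 4.88, 8.92, 22.2 and 8.12 CPM under saline and 9.06, 9.66, 11.1, 11.2 and 11.6 CPM under ISRIB. Old monocytes read 13.1, 11.1, 11.6, 10.4 and 16.4 CPM under saline and 12.7, 15.4, 10.1, 10.9 and 8.08 CPM under ISRIB. In each of the 4 matched pairs of groups, every monocyte library lay above every macrophage library. The share of all genes free of overlap between the cell types was not counted, so this is a description only. Among the 5 genes Cd79b also had the steadiest monocyte group: in young ISRIB monocytes the spread between libraries was 0.991 times what counting alone gives, against 27 times in young saline monocytes, where 1 library stood at 22.2 CPM.

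Ms4a1 (ENSMUSG00000024673, chr19:11249675-11266241, minus strand), which encodes CD20, was at 0 in most young saline macrophage libraries. In young saline macrophages 4 of 5 libraries had a count of 0, where 3 counts would be 0.358 to 0.494 CPM, and the other had 8 counts or 0.498 CPM. Young ISRIB macrophages read 0.385, 3.92, 0 and 0.306 CPM, so that 1 library held 35 of the group's 41 counts. Old macrophages read 2.30, 2.83, 4.98, 1.72 and 2.85 CPM under saline and 4.55, 8.85, 10.5, 5.68 and 2.97 CPM under ISRIB. Old and young libraries did not overlap under saline, and under ISRIB they overlapped through the young library at 3.92 CPM. The age difference on the log2 scale was 4.20 ± 0.89 (SE) under saline and 2.39 ± 0.78 under ISRIB.

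Monocytes had a higher mean of Ms4a1 than macrophages of the same age and treatment, except in the old ISRIB groups (5.45 against 6.51 CPM). The libraries overlapped in each of these pairs. Young saline monocytes read 2.16, 0.665, 2.66, 0 and 0.125 CPM, and old saline monocytes 5.33, 4.02, 4.08, 1.67 and 4.29 CPM. Young ISRIB monocytes read 3.82, 3.27, 1.63, 4.41 and 1.94 CPM, and old ISRIB monocytes 2.41, 4.07, 7.89, 6.41 and 6.49 CPM. Age groups overlapped under both treatments, under saline through the single old library at 1.67 CPM.

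The transcription factors had at most 133 counts in any group. Pax5 (ENSMUSG00000014030, chr4:44524757-44710487, minus strand) read 0, 0.517, 0, 0 and 0.0623 CPM in young saline macrophages and 1.06, 0.448, 1.86 and 0 CPM in young ISRIB macrophages. Old macrophages read 0, 0.339, 1.69, 0.529 and 1.32 CPM under saline and 0.724, 1.01, 2.50, 0.631 and 1.29 CPM under ISRIB. The age groups overlapped under both treatments, and the log2 difference with age was 2.66 ± 1.07 (SE) under saline and 0.54 ± 0.93 under ISRIB. The exons of Pax5 overlap those of Gm12462 and 5730488B01Rik on the opposite strand, and the strand setting of the counting is not given in the sources used here, so reads from them cannot be told apart.

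Ebf1 (ENSMUSG00000057098, chr11:44617317-45008091, plus strand), which acts upstream of Pax5 in B cell development and is also known from stromal and fat cells, read 0, 0, 0.717, 0 and 0.436 CPM in young saline macrophages. Young ISRIB macrophages read 0.964, 0.560, 2.95 and 0 CPM, and old macrophages 0, 0.452, 1.69, 0.661 and 1.22 CPM under saline and 1.03, 2.28, 1.62, 1.77 and 1.29 CPM under ISRIB. Age groups overlapped under both treatments. The log2 difference with age was 1.63 ± 0.97 (SE) under saline and 0.54 ± 0.91 under ISRIB, the smallest of the 5 in both cases, although Pax5 came within its SE under ISRIB.

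In monocytes Pax5 had group means of 0.389 ± 0.332 CPM in young saline, 1.58 ± 0.846 in young ISRIB, 1.31 ± 0.608 in old saline and 1.46 ± 1.09 in old ISRIB libraries (SD, n = 5 each). Ebf1 had means of 0.583 ± 0.303, 1.64 ± 0.734, 2.12 ± 1.35 and 2.96 ± 0.631 CPM in the same order (SD, n = 5 each). For both factors young saline monocytes had the lowest mean of the 4 monocyte groups. Their libraries overlapped the others except for Ebf1 in old ISRIB monocytes, which ran from 1.84 to 3.32 CPM against 0.218 to 1.04 CPM. That pair of groups differs in both age and treatment, and the share of all genes free of overlap in it was not counted.

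**Figure D1:**
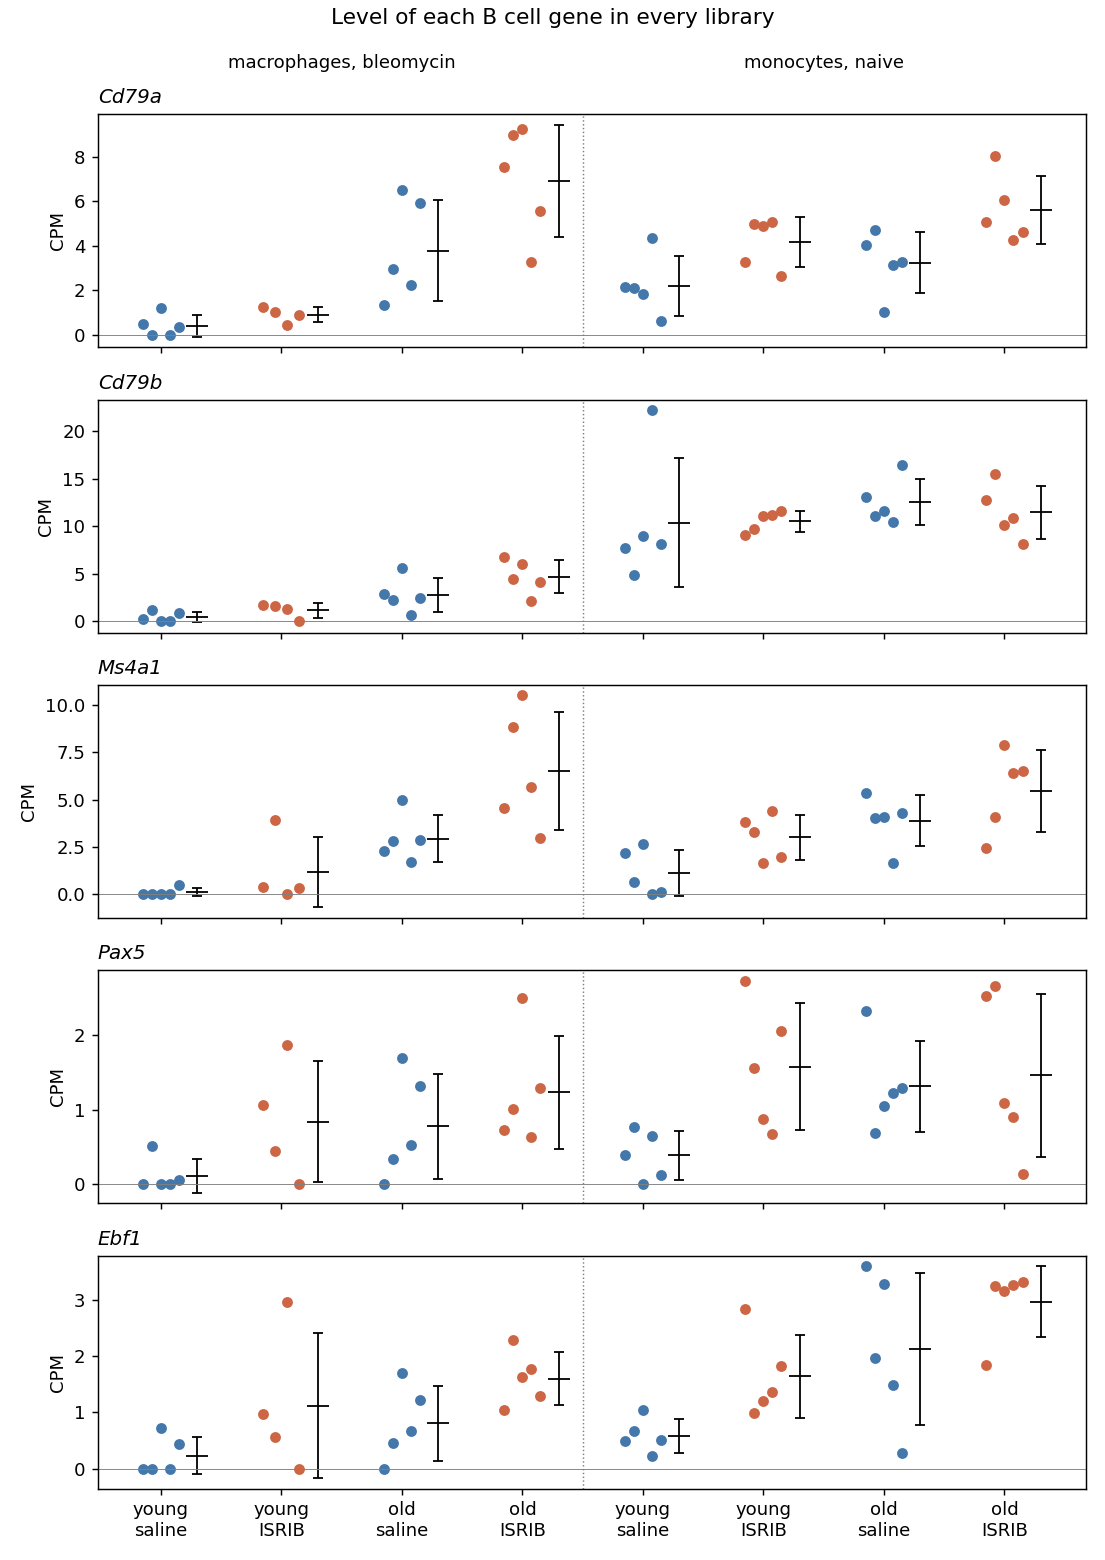
Level of each of the 5 genes in every library (vertical axis, CPM on a linear scale that differs between panels) for the 8 groups (horizontal axis), macrophages left and monocytes right of the dotted line. Points are libraries, blue for saline and orange for ISRIB, and black bars are the group mean and SD; young saline macrophages have the lowest mean in every panel.

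Over the 5 genes, 2 did not overlap between old and young macrophages under saline (Cd79a and Ms4a1) and 2 under ISRIB (Cd79a and Cd79b). Among all genes tested, 1.22% were free of overlap and higher with age under saline (1.93% lower) and 2.86% under ISRIB (2.05% lower). These contrasts chose the genes, so the counts carry no further weight. In the other 6 pairwise contrasts within a cell type, 0 of 5 genes were free of overlap in either direction. The share of all genes free of overlap there was 1.39% higher and 0.238% lower for age in saline monocytes, and 0.748% and 0.83% for age in ISRIB monocytes. For ISRIB it was 1.8% and 2.1% in young macrophages, 0.608% and 0.477% in old macrophages, 0.756% and 0.164% in young monocytes and 0.419% and 1.01% in old monocytes. The median log2 difference with age was 2.66 over the 5 genes under saline and 1.98 under ISRIB. In macrophages, 18 of the 45 values of young libraries were counts of 0, compared with 2 of the 50 values of old libraries and 2 of 100 in monocytes. In bulk libraries like these, fewer cells with these transcripts and fewer transcripts per cell cannot be told apart. Which cells held the transcripts was not tested.

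Put in order of mean level, young saline macrophages came last for each of the 5 genes. The highest group was old ISRIB macrophages for Cd79a (6.93 CPM) and Ms4a1 (6.51 CPM), old saline monocytes for Cd79b (12.5 CPM), young ISRIB monocytes for Pax5 (1.58 CPM) and old ISRIB monocytes for Ebf1 (2.96 CPM). Neighbours in that order overlapped in every case, and no gap between neighbours exceeded 1.09 times the larger SD. Scaled by exon length, as TPM, the highest group means were 28.8 for Cd79b, 14.1 for Cd79a, 3.11 for Ms4a1, 0.999 for Ebf1 and 0.585 for Pax5. Per length, then, the signalling chains lay above the surface protein and the factors, which were at most 1 TPM in any group.

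The first comparison that did not choose the genes was age in monocytes. None of the 5 passed the threshold (an adjusted p under 0.05 in the quasi-likelihood test of edgeR, adjusted over all 12170 genes tested) under saline, where 3 of all genes tested did (0.0247%). The log2 differences of old against young under saline were 1.75 ± 0.54 (SE) for Ebf1 with an adjusted p of 0.278, 1.71 ± 0.73 for Pax5 (0.476) and 1.63 ± 0.59 for Ms4a1 (0.397). Those of the signalling chains were 0.55 ± 0.41 for Cd79a (0.761) and 0.27 ± 0.28 for Cd79b (0.837). All 5 were positive with a median of 1.63, against 0.00534 over all genes, and 3 had an unadjusted p under 0.05, as 5.05% of all genes did in that direction.

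Under ISRIB the age difference in monocytes was positive for 4 of 5 genes, with a median of 0.466, and again none passed (edgeR, adjusted p 0.842 to 0.997). The values ran from -0.08 ± 0.64 (SE) for Pax5 to 0.90 ± 0.55 for Ms4a1. Of all genes tested 0 passed, 803 had an unadjusted p under 0.05, and DESeq2 and limma voom called 22 and 1. For Cd79b the 95% interval of the age difference in monocytes was -0.31 to 0.85 under saline and -0.42 to 0.73 under ISRIB, the tightest of the 5 genes.

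ISRIB against saline was also outside the choice of genes, although in macrophages it reused libraries on which the choice rested. In young macrophages the log2 differences were 2.93 ± 0.96 (SE) for Ms4a1, 2.74 ± 1.12 for Pax5, 2.05 ± 1.01 for Ebf1, 1.30 ± 0.81 for Cd79b and 1.16 ± 0.70 for Cd79a. The adjusted p of edgeR was 0.194, 0.303, 0.405, 0.525 and 0.508 in that order, so none passed. The unadjusted p was 0.00522 for Ms4a1 and 0.0212 for Pax5, and 6.92% of all genes had one under 0.05 in that direction. Both genes entered the fit largely through old libraries, where they were higher, so that share is not an even comparison. The Ms4a1 value rested on 2 libraries. Without young ISRIB library 2, with 35 counts, it was 0.69 with an adjusted p of 0.883, and without young saline library 5, with 8 counts, it was 6.35 with an adjusted p of 0.104, a fit against libraries that all had a count of 0 and so no bound. Without young ISRIB library 3 the value was 3.30 with an adjusted p of 0.0468, and with no filter on low counts it was 2.91 with an adjusted p of 0.0317.

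In old macrophages all 5 genes had a higher mean under ISRIB, and none passed. The log2 differences were 1.12 ± 0.67 (SE) for Ms4a1, 0.95 ± 0.86 for Ebf1, 0.84 ± 0.52 for Cd79a, 0.74 ± 0.66 for Cd79b and 0.62 ± 0.86 for Pax5, with adjusted p of 0.653 to 0.885 by edgeR. The libraries of the 2 treatments overlapped for each gene. For Cd79a the 95% interval ran from -0.22 to 1.91, so that a more than 3-fold rise was within it. No gene at all was called at either age by edgeR or limma voom, with 1513 genes in young and 1112 in old macrophages at an unadjusted p under 0.05, and DESeq2 called 105 and 43.

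The ISRIB difference in old mice minus that in young mice was negative for all 5 genes in macrophages, from -2.12 ± 1.39 (SE) for Pax5 and -1.81 ± 1.15 for Ms4a1 to -0.31 ± 0.82 for Cd79a. Without young ISRIB library 2 the Ms4a1 value was 0.43. Adjusted p were 0.973 to 0.995 by edgeR, so the age difference was not shown to depend on treatment. The same value is the age difference under ISRIB minus that under saline. Both of those contrasts chose the genes, so these p-values are not independent of the choice. Of all genes, 0 passed by edgeR, DESeq2 or limma voom, and 621 had an unadjusted p under 0.05 by edgeR.

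In young monocytes ISRIB gave log2 differences of 2.00 ± 0.73 (SE) for Pax5, 1.41 ± 0.54 for Ebf1, 1.28 ± 0.59 for Ms4a1 and 0.91 ± 0.41 for Cd79a, and 0.03 ± 0.28 for Cd79b. None passed by edgeR (adjusted p 0.689 to 0.989), and 4 of 5 had an unadjusted p under 0.05, against 3.62% of all genes in that direction. Saline and ISRIB libraries overlapped for each of the 4. This contrast shares the young saline libraries with that of age under saline, so the values are not independent of those above. In old monocytes the values were 0.83 ± 0.39 for Cd79a, 0.55 ± 0.54 for Ms4a1, 0.53 ± 0.48 for Ebf1, 0.21 ± 0.64 for Pax5 and -0.08 ± 0.28 for Cd79b (adjusted p 0.652 to 0.975). The intervals for Cd79b, -0.55 to 0.61 in young and -0.65 to 0.49 in old monocytes, left out a change of 2-fold in either direction.

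Young and old monocytes were not shown to differ in their response to ISRIB for any of the 5 genes (edgeR, adjusted p 0.749 to 0.991), and all 5 differences were negative, those of Cd79a and Cd79b only in part of the fits that left out 1 library. Over all genes edgeR called 0 in each of these 3 monocyte contrasts, with 809, 918 and 865 at an unadjusted p under 0.05. DESeq2 called 0, 14 and 0, and limma voom 0 in each.

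**Figure D2:**
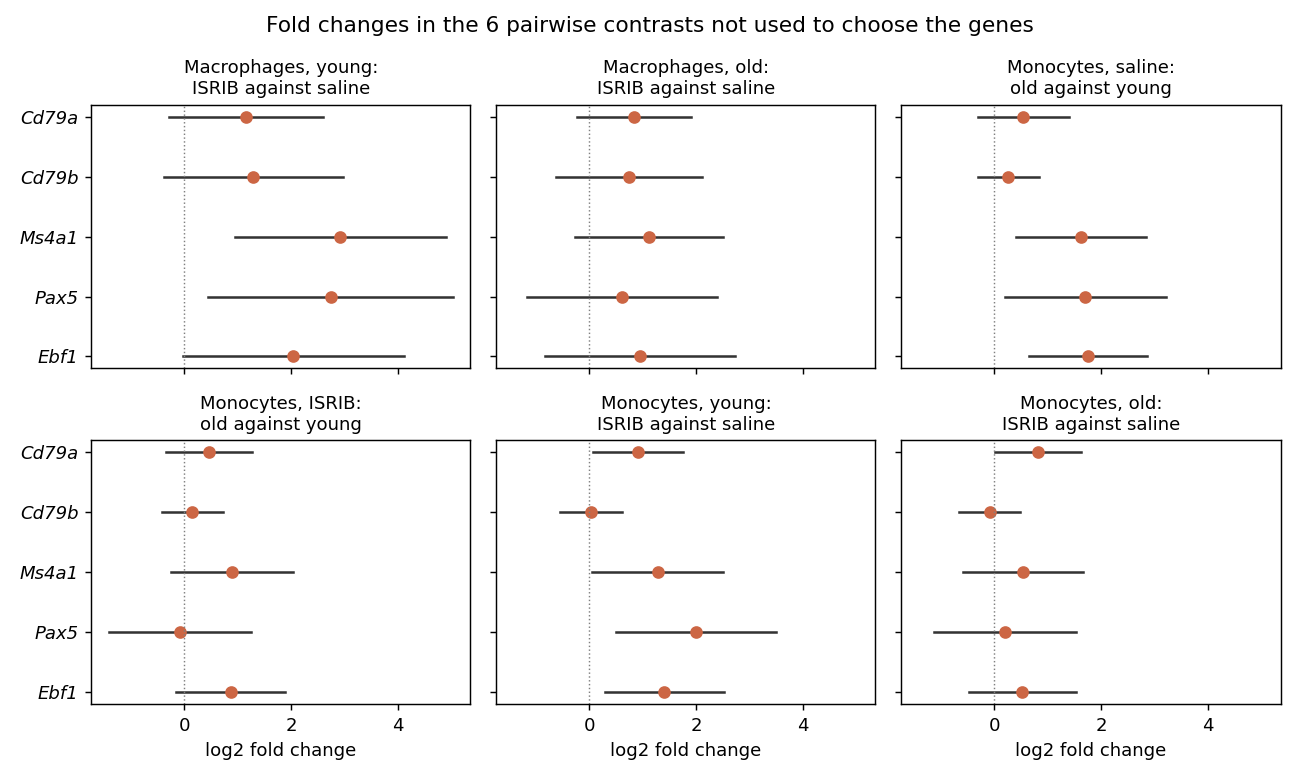
Fitted log2 fold change of each gene (horizontal axis) in the 6 pairwise contrasts that did not choose the genes, with 95% intervals as lines. Most points lie right of the dotted line at 0, and Cd79b in monocytes has the narrowest intervals.

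The mixture of the 5 genes differed between the cell types. Of their summed counts, Cd79b made up 67.8% in young saline monocytes (95% exact binomial interval 63.7 to 71.7%), 50.3% in young ISRIB (46.9 to 53.6%), 53.9% in old saline (50.8 to 56.9%) and 43.1% in old ISRIB monocytes (40.3 to 45.9%). In old macrophages its share was 25.2% under saline (21.6 to 29.1%) and 22.8% under ISRIB (20 to 25.7%), of 536 and 865 counts. Cd79a made up 34.1% and 33.2% there, and 14.5 to 21.1% in monocytes. The young macrophage groups held only 69 and 173 counts of the 5 genes, which makes their shares imprecise.

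**Figure D3:**
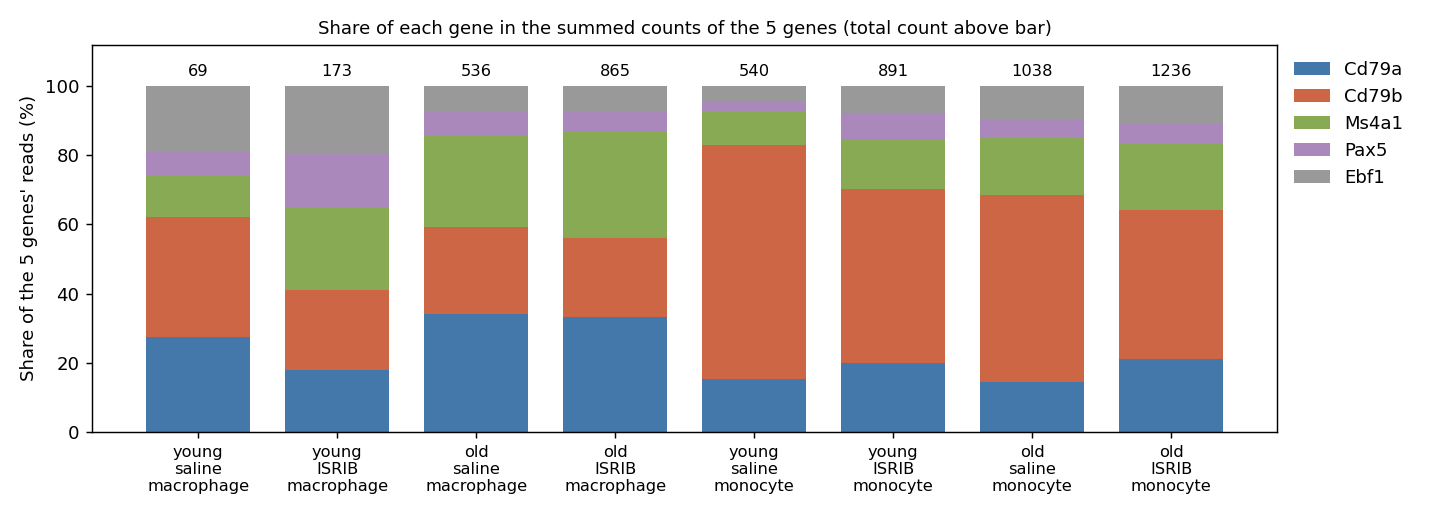
Share of each gene in the summed counts of the 5 genes (vertical axis, percent) in each group (horizontal axis), with the summed count above the bar. Cd79b fills 43.1 to 67.8% of the monocyte bars and 22.8 to 34.8% of the macrophage bars.

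Library by library the order of the signalling chains differed between monocytes and old macrophages. Cd79b was above Cd79a in CPM in 20 of 20 monocyte libraries, while Cd79a was above Cd79b in 9 of 10 old macrophage libraries. In young macrophages, with few counts, Cd79b was above Cd79a in 5 of 9 libraries and below it in 3. The log2 ratio of Cd79b to Cd79a, with 0.5 added to each count, was 2.06 ± 0.83 in old saline monocytes (SD, n = 5, range 1.23 to 3.39) and -0.50 ± 1.04 in old saline macrophages (SD, n = 5, range -1.67 to 1.03). Under ISRIB it was 1.02 ± 0.29 and -0.56 ± 0.31 (SD, n = 5 each). The ratio was chosen after its values were seen and has no test, and whether bleomycin or the cell type goes with it cannot be told apart.

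**Figure D4:**
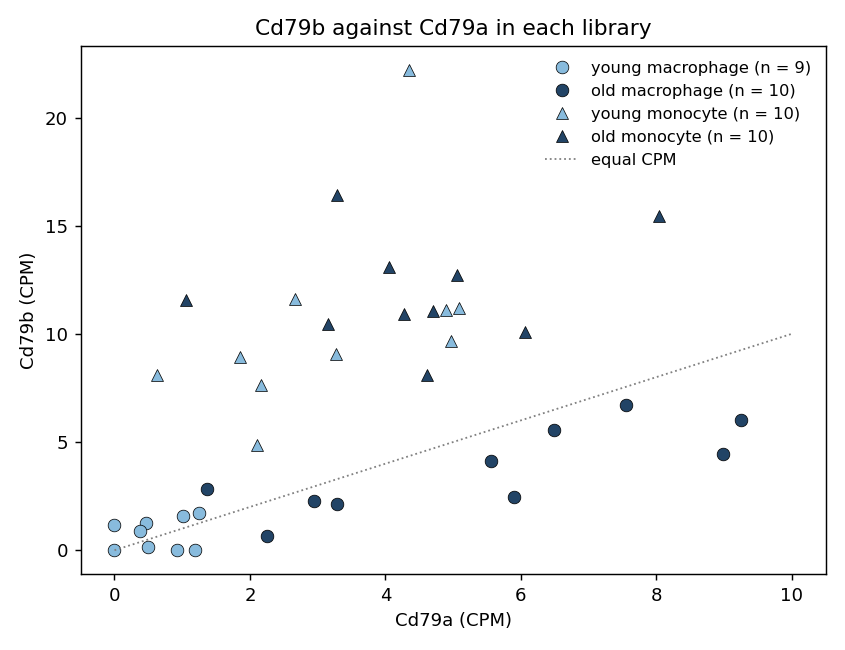
Cd79b (vertical axis, CPM) against Cd79a (horizontal axis, CPM) in each of the 39 libraries, circles for macrophages, triangles for monocytes, light for young and dark for old. All 20 monocyte libraries lie above the dotted line of equal CPM, and 9 of 10 old macrophage libraries lie below it.

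Across the 19 macrophage libraries the genes whose CPM were most like that of Cd79a, by Spearman rho, included Lck (0.942), a kinase of T cells, Gimap4 (0.935), Pou2af1 (0.933), a coactivator of B cells, and Gimap6 (0.925). Among the nearest to Cd79b were Sept1 (0.939), Cxcr5 (0.888), a chemokine receptor of follicular B and T cells, Evl (0.888) and Lmtk2 (0.879). The nearest to Ms4a1 were Krt79 (0.922), Lmtk2 (0.910), Enpp5 (0.902), Ralgds (0.892) and Rgl1 (0.883). These libraries share the 4 groups, and any gene that differs with age joins such an order.

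Among themselves, Cd79a had a rho of 0.838 with Cd79b and 0.869 with Ms4a1 across macrophages, Cd79b had 0.828 with Ms4a1, and Pax5 had 0.836 with Ebf1. Pairs of Pax5 or Ebf1 with a signalling chain or Ms4a1 were lower. They ran from 0.539 (Pax5 with Ms4a1) to 0.677 (Pax5 with Cd79b). Within the 10 old macrophage libraries, a subset looked at after the values were seen, Cd79a had a rho of 0.842 with Ms4a1, 0.806 with Pax5, 0.782 with Cd79b and 0.661 with Ebf1. The lowest pair of the 5 genes there was Cd79b with Ebf1, at 0.273. Cd79a also had 0.915 with Lck there, and 0.297 with Jchain, the joining chain that plasma cells make. These 10 libraries hold both treatments, and all 5 genes had a higher mean under ISRIB among them. The values can therefore take in that difference. In the 20 monocyte libraries Cd79a and Cd79b were less alike, with a rho of 0.377. The gene most like Cd79b in monocytes was Thoc3 (0.878), an RNA export factor, and most like Ms4a1 were Per2 (0.857) and Ighd (0.826).

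Other genes of the B cell programme were counted from lists that, like the 5 genes, were drawn up with earlier results known. In old against young saline macrophages, 0.937% of all genes tested were called higher and 0.222% lower. Of 16 genes of the B cell receptor and its signalling 0 were called by edgeR, and of 12 B lineage transcription factors 1 was, Pou2af1, at 3.77 ± 0.77 (SE) with an adjusted p of 0.0144, which was 0.0572 by limma voom. Of 20 other B cell genes 17 were tested and 0 called, with a median log2 difference of 0.782. Several genes of these lists, such as Lyn, Syk, Btk and Cd74, are also made by myeloid cells.

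Under ISRIB 0.444% of all genes were called higher and 0.493% lower with age in macrophages. Of the 12 factors 1 was called by edgeR, again Pou2af1, at 3.79 ± 0.79 (SE) with an adjusted p of 0.0148. Pou2af1 lost this call without young ISRIB library 2, 3 or 4, at most at an adjusted p of 0.0685. Its level was 0.273 ± 0.296 CPM in young (SD, n = 4) and 4.26 ± 0.588 CPM in old ISRIB macrophages (SD, n = 5).

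Of 9 genes of B cell progenitors in the list, 2 reached the filter in macrophages and 0 were called by edgeR. The 9 summed to 45.3 to 127 CPM in macrophages, mostly through Il7r, a cytokine receptor chain also made by other lymphoid cells, and to 22.2 to 193 CPM in monocytes. Igll1, Rag2 and Vpreb2, which serve the assembly of antibody genes and of the early receptor, had a count of 0 in all 39 libraries. Of 10 plasma cell genes 6 were tested and Jchain alone was called, at 5.82 ± 1.10 (SE) under saline with an adjusted p of 0.00912 and 7.02 ± 1.24 under ISRIB with 0.00424. limma voom did not call Jchain under either treatment (adjusted p 0.41 and 0.275). No gene of these B cell and plasma cell lists was called by edgeR in a contrast of ISRIB with saline or in monocytes.

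The antibody constant genes, measured beside the 5 genes, summed to 7.26 to 28.7 CPM in young saline and 19.3 to 388 CPM in old saline macrophages, and to 121 to 336 CPM in monocytes. Of 12 in the list, 10 were matched and 5 tested, and 3 were called higher with age under each treatment by edgeR and none of these by limma voom.

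Markers of T cells, NK cells and conventional dendritic cells were higher in each old than in each young macrophage library given the same treatment, as the sum of the 5 genes was. The 10 T cell markers, all matched and none at 0 in every library of a macrophage group, summed to 3.75 to 7.91 CPM in young saline and 10.3 to 31.7 CPM in old saline macrophages. Under ISRIB they summed to 5.44 to 12.0 and 18.6 to 46.5 CPM, again free of overlap. Of 8 tested under saline, 1 was called, Cd8a at 4.07 ± 1.0 (SE) with an adjusted p of 0.0424, a call lost by limma voom, with the replicate block and in 7 of 10 fits that left out 1 library. Those were each of the 5 young saline libraries and old saline libraries 3 and 5, and the adjusted p reached 0.217 over all alternatives. The 6 NK markers summed to 0.388 to 1.79 CPM in young saline and 2.41 to 8.09 CPM in old saline macrophages, with Ncr1 and Eomes at 0 in young macrophages, and to 0.897 to 2.45 and 5.43 to 8.28 CPM under ISRIB. The 6 dendritic cell markers, none at 0 in a whole group, summed to 7.64 to 11.2 CPM in young saline and 12.3 to 21.2 CPM in old saline macrophages, and to 6.11 to 10.6 and 17.1 to 26.9 CPM under ISRIB, where Clec9a was called at 1.59 ± 0.31 (SE) with an adjusted p of 0.0111 by edgeR. Sums of 2 lists lay the other way without overlap: the 7 monocyte markers, at 1620 to 2100 CPM in young saline and 1270 to 1610 CPM in old saline macrophages and 1430 to 1730 and 1100 to 1360 CPM under ISRIB, and the 7 pericyte and smooth muscle markers, at 193 to 256 and 69.0 to 171 CPM and at 122 to 252 and 35.7 to 82.7 CPM. Higd1b, one of the latter, was at 0 in macrophages. Members of both lists differed in direction. Of the 7 monocyte markers 4 had a positive log2 difference with age under saline and 3 under ISRIB. By edgeR 2 were called lower under saline. Under ISRIB 1 was called lower and Treml4 higher, at 1.42 ± 0.29 (SE) with an adjusted p of 0.0148. Of the 7 pericyte and smooth muscle markers 2 were tested: Cspg4, at -0.84 under saline and -1.39 under ISRIB, and Acta2, at 0.24 and 0.47. The part of these cells in the levels of the 5 genes was not tested.

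Monocytes held T cell markers at 12.3 to 128 CPM and NK markers at 4.37 to 45.7 CPM. In old ISRIB monocytes, where the 5 genes summed to 22.7 to 33.4 CPM, the T cell markers summed to 51.7 to 114 CPM. In young saline monocytes the corresponding ranges were 9.09 to 27.4 and 12.3 to 35.9 CPM, and the part of either in the other was not tested.

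Fibroblast markers, counted because Ebf1 is also known from stromal cells, did not follow the 5 genes as a sum. The 10 markers summed to 1.62 to 28.2 CPM in young saline macrophages and 1.98 to 8.14 CPM in old saline macrophages, to 1.54 to 11.6 and 0.388 to 6.31 CPM under ISRIB, and to at most 7.21 CPM in monocytes. Lum was at 0 in each of the 8 groups. Within the old macrophages Ebf1 had a Spearman rho of -0.0938 with Col1a2, a collagen gene of fibroblasts, and Ms4a1 had 0.855 with Ebf1, over 10 libraries of both treatments. Single markers differed. Across the 19 macrophage libraries Ebf1 had -0.514 with Col1a2, 0.0171 with Dcn and 0.484 with Pdgfra. Across the 20 monocyte libraries it had -0.0807 with Col1a2 and 0.632 with Pdgfra, which was at 0 in young monocytes. The part of fibroblasts in the Ebf1 level was not tested.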

How the data were processed

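RNA was extracted from sorted lung cells, and polyA-selected libraries were made from 3 ng of RNA and sequenced on a NextSeq 500, per the labels' protocols and the series text. The submitters' processing notes name bcl2fastq 2.19.1, FastQC, Trimmomatic 0.36, STAR 2.6.0, HTSeq 0.11.2 and mm10. Annotation release and strand setting: not given in the sources used here. The authors deposited 1 table of counts, with raw reads per Ensembl gene ID and no scaling. Of 43430 IDs, 42462 matched a symbol in GENCODE vM21 (GRCm38), which also gave positions and exon lengths.

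CPM were counts divided by the library total. The 19 macrophage and 20 monocyte libraries were fitted separately by the edgeR 4.0.16 quasi-likelihood method (R 4.3.3, TMM, minimum count 10, minimum total 15, group means, no covariate) and Benjamini-Hochberg adjustment over 12171 and 12170 genes. All 5 genes passed the filter in both. The filter took in all libraries of a cell type. In macrophages Ms4a1, Pax5 and Ebf1 passed it largely through old libraries, where they were higher. The fit was tested on simulated data with the same spread for every gene and with changed genes of a mean above 20 counts. That check did not cover changes at lower counts, such as those of Pax5 and Ebf1. Intervals of fold changes are 95% from the t quantile of the fit. Alternatives were DESeq2 1.42.0, limma 3.58.1 voom, RLE factors, no filter, a replicate block and leaving out each library.

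The 5 genes and all lists were chosen with earlier results of these data known. The genes named were the 5, up to 4 called genes per list, list members at 0, and the 5 genes most like each by Spearman rho among those with a mean of at least 1 CPM. Of 170 list symbols 168 matched. Some genes that this rule names are not reported here.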

Additional observations from a re-analysis of the deposited data

Results flagged for a closer look

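In 5 of 40 groups of libraries (5 genes in 8 groups) 1 library stood apart from the rest by Dixon's test at the 95% level. Chance gives this in about 1 of 20 groups of normally distributed values, a rate that need not hold for counts near 0. Cd79b was 22.2 CPM in young saline monocyte library 4, against 4.88 to 8.92 CPM in the others, from 102 counts in the library with the lowest total of all 39. Ms4a1 was 0.498 CPM in young saline macrophage library 5, from 8 counts, where the others had 0, so that any count there would have been flagged. Ms4a1 was 3.92 CPM in young ISRIB macrophage library 2, from 35 counts, with 0 to 0.385 CPM in the others. Pax5 was 0.517 CPM in young saline macrophage library 2, from 4 counts, against 0 to 0.0623 CPM. Ebf1 was the exception in direction, with 1.84 CPM and 16 counts in old ISRIB monocyte library 1, below the 3.16 to 3.32 CPM of the others.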

How the results depend on the processing

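For the 5 genes, the 40 tested values (8 contrasts) kept their direction and their side of the threshold in 187 of 188 values under other tools and settings and in 470 of 490 values with 1 library left out. Ms4a1 in young macrophages, given in the report, crossed the threshold once under each. The other 19 values changed sign with 1 library left out, in 7 of the 40 results, none of them past the threshold (lowest adjusted p 0.892). The log2 ranges of these 7 were -5.24 to 0.43 for Ms4a1 (age by ISRIB, macrophages), -0.40 to 0.22 for Pax5 (age, ISRIB monocytes), -0.11 to 0.49 for Pax5 (ISRIB, old monocytes), -0.15 to 0.47 and -0.20 to 0.0331 for Cd79b (ISRIB, young and old monocytes), and -0.41 to 0.16 for Cd79a and -0.55 to 0.0664 for Cd79b (age by ISRIB, monocytes). DESeq2 gave no adjusted p for 12 of the 40. All 40 group means moved by less than 1 SD with TMM scaling. A gene had 0 to 186 counts per library, and the spread between libraries reached 27 times what counting alone gives (Cd79b, young saline monocytes). Small differences may have been missed, and the smallest detectable difference was not tested.

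Counts over all genes depended more on the setting, and the cause was not tested. With DESeq2 the age effect in macrophages had 294 calls under saline and 260 under ISRIB in place of 141 and 114, the ISRIB effect 105 in young and 43 in old macrophages in place of 0, and monocytes 46 (age, saline; 3 by edgeR), 22 (age, ISRIB; 0) and 14 (ISRIB, old; 0). With no filter on low counts, where more genes were tested, the macrophage counts were 468, 405, 224 and 220 in that order and 33 for age by ISRIB, and the monocyte counts 15, 41, 21 and 12, the last for age by ISRIB. limma voom called 1 gene with age in monocytes under each treatment.

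The main fit did not pair libraries by replicate number. The deviations of same-numbered libraries had correlations of -0.148 to 0.165 in macrophages and -0.191 to 0.242 in monocytes. Such values cannot show whether same-numbered libraries shared a batch. With the replicate number as a block, the ISRIB effect in young macrophages had 10 calls, age by ISRIB in macrophages 1 and age in saline monocytes 7. It called none of the 5 genes where they were tested.

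With 1 library left out, calls ran from 47 (without old saline library 5) to 289 (without old saline library 2) for age in saline macrophages, and from 33 (without young ISRIB library 3) to 161 (without young ISRIB library 1) under ISRIB. They ran from 0 to 304 (without young ISRIB library 3) for ISRIB in young macrophages, 0 to 30 (without old saline library 3) in old ones and 0 to 1 for age by ISRIB. In monocytes they ran from 0 (without young saline library 2, for instance) to 8 (without young saline library 4) for age under saline, 0 to 17 (without old ISRIB library 2) under ISRIB, 0 to 1 for ISRIB in old mice, and were 0 throughout for ISRIB in young mice and for age by ISRIB.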
